A study of Homo sapiens with 20 samples.

Results

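The cytosolic sulfotransferases were examined in HepaRG cells, a human hepatoma line whose proliferating progenitors turn into hepatocyte-like and biliary-like cells in culture. The members were 8 genes given by name, SULT1A1, SULT1A2, SULT1B1, SULT1C2, SULT1C4, SULT1E1, SULT2A1 and SULT2B1, and every probe whose RefSeq accession mapped to one of these symbols was taken. Of the 8 genes, 7 had at least 1 probe (9 probes in all), among 19062 named genes on the array. SULT1A1 had no probe matched by accession and was not analysed here. RNA was measured on 20 one-colour arrays, 4 independent biological replicates for each of 5 conditions. The first conditions were proliferating progenitors on day 4 (D4) and committed cells on day 15 (D15). The others were cells kept until day 30 without dimethyl sulfoxide (D30 − DMSO), cells given 2% DMSO from day 15 until day 30 (D30 + DMSO), and cells from which DMSO had been withdrawn on day 30, collected on day 34, 4 days later (D34 ± DMSO). All 5 conditions shared 1 cell line and a William's E medium with serum, insulin and hydrocortisone, so that a glucocorticoid was present throughout. No D34 culture that kept DMSO and no D34 culture that never received it was included, so that withdrawal and the added days cannot be told apart.

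Sulfotransferases of the cytosol move a sulfonate group from the donor PAPS onto hydroxyl or amino groups of small molecules. The products are more water-soluble and usually leave the cell through transporters, which makes the family part of phase II drug metabolism. The members differ in substrate. SULT1E1 acts on estrogens with high affinity, SULT2A1 on dehydroepiandrosterone and bile acids, SULT1B1 on thyroid hormones and small phenols, SULT1A1 and SULT1A2 on phenols, and SULT2B1 on cholesterol and pregnenolone. SULT2A1 and SULT1A1 are abundant in adult human liver.

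Signals were scaled to the 75th percentile of each array and are given in intensity units. Signals of different probes cannot be ranked against each other, since probes differ in affinity. Replicate arrays of a condition correlated with r between 0.955 and 0.992, and 61.1% to 74.2% of the spots of an array lay well above background by the scanner software's own call. The 20 arrays lay on 4 slides, and slide 4, scanned in a second session, carried the replicate 4 arrays of all conditions and also the replicate 3 arrays of D15 and D30 + DMSO. Hepatocyte markers (ALB, TTR, APOA1 and 6 others) lay above background on every array. Their summed signal ran from 135000 to 280000 at D4 and from 1040000 to 2450000 in the later conditions. Among the biliary markers, KRT19 and KRT7 lay above background on all arrays, whereas EPCAM and CFTR lay above it on none. Of the leukocyte markers, CD14 and PTPRC lay above background on all arrays. The marker sets of enterocytes, keratinocytes and endothelial cells were each measured on all arrays of a condition by 1 gene alone (VIL1, KRT5 and CDH5).

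A probe entered the tests when all 4 arrays of some condition showed it well above background. Of the 9 sulfotransferase probes, 6 did, representing SULT1A2, SULT1B1, SULT1C2 (2 probes), SULT1E1 and SULT2A1. These entered together with all other retained probes, 26538 in total, in a single limma fit. A difference was called when it exceeded 2-fold with a Benjamini-Hochberg adjusted p under 0.005. From D4 to D15, 5 of the 6 probes were called higher, against 5.46% of all probes. From D15 to D30 − DMSO, 0 of 6 were called in either direction, against 0.00377% of all probes. Of the 6, 2, SULT1B1 and SULT2A1, had an unadjusted p below 0.05, as had 757 of all 26538 probes. In D30 + DMSO against D30 − DMSO, 3 of 6 were called lower (4.1% of all probes) and 0 of 6 higher (1.67% of all probes). SULT2A1 alone had an unadjusted p below 0.05 in the higher direction, and 7589 of all 26538 probes had one in either direction. After withdrawal, 3 of 6 were called higher in D34 ± DMSO than in D30 + DMSO (5.03% of all probes). Between D34 ± DMSO and D30 − DMSO, 0 of 6 were called in either direction (1.45% of all probes). SULT1B1 alone had an unadjusted p below 0.05, as had 3827 of all 26538 probes. The methods' t-test also gave 0 calls among the 6 where limma gave 0. It called 0 of all 26538 probes from D15 to D30 − DMSO and 3 between D34 ± DMSO and D30 − DMSO. With so few calls over all probes, its 0 among the 6 decides nothing there. It called 197 of all probes higher with DMSO. From D15 to D30 + DMSO, 1 of 6 was called higher (2.19% of all probes) and 3 of 6 lower (4.22% of all probes). A moderated F-test over the 5 conditions, with Bonferroni adjustment, called 5 of the 6, against 4.91% of all probes. The exception was SULT1A2 (adjusted p = 0.557). The addition and withdrawal comparisons share the D30 + DMSO arrays, so that their values for a gene are not independent.

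**Figure D1:**
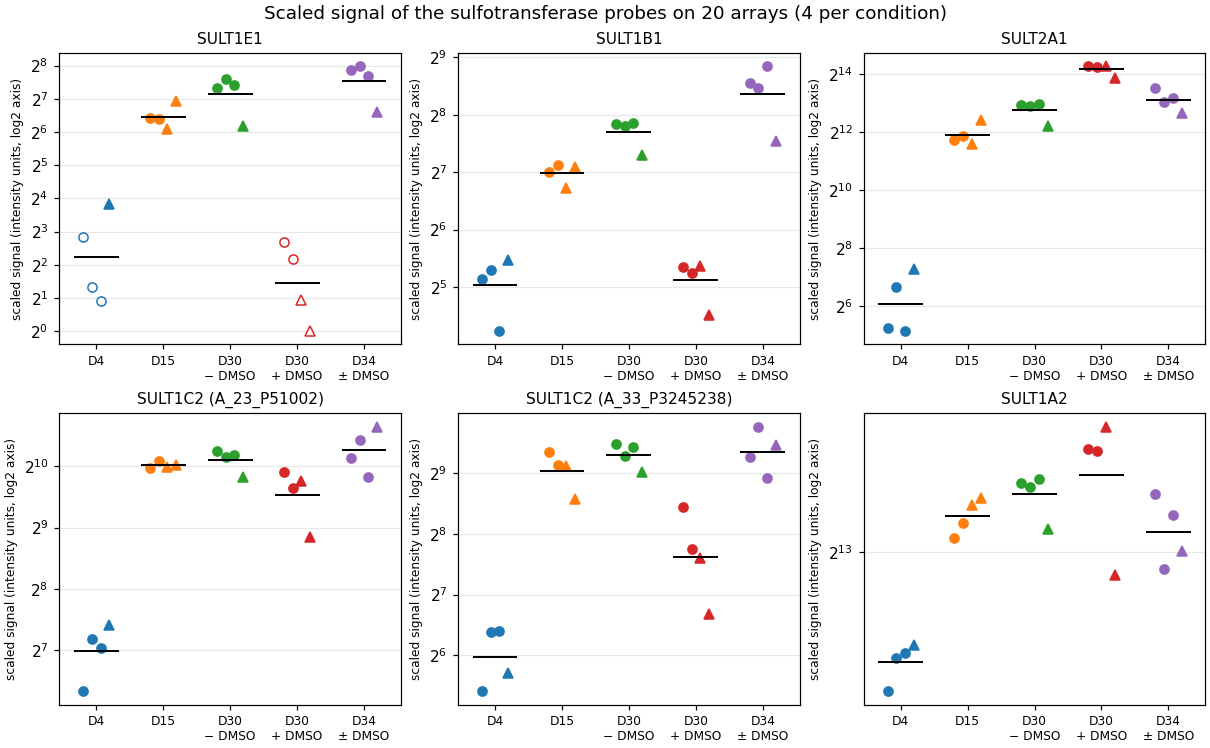
Scaled signal (intensity units, log2 axis) of the 6 sulfotransferase probes that entered the tests, by condition. Each point is 1 array (triangles, slide 4; circles, slides 1 to 3), open points were not well above background, values below 1 are drawn at 1, and the line is the mean on the log2 scale of 4 arrays. SULT1E1 and SULT1B1 were low at D4 and in D30 + DMSO, whereas SULT2A1 was highest in D30 + DMSO.

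The promoters of SULT1E1, SULT1B1 and SULT2A1 are shown because the first pair, adjacent genes on chromosome 4, fell and rose together with DMSO while SULT2A1, on chromosome 19, had its highest signal in D30 + DMSO. Each runs from 250 bases before to 50 bases after the annotated start, taken from RefSeq on GRCh38.p14, and all 3 genes lie on the minus strand. A total of 6 members had a promoter in this table. Capitals mark 4 motifs on either strand. TATAAA is the core recognised by the TBP protein, and 11.5% of 35116 promoters of the same length held it. GTTAAT is a half-site of the hepatic HNF1 factors and was held by 6.88% of them. AGGTCA is the half-site of many nuclear receptors and was held by 13.8%. CAAAGT is common in sites of the receptor HNF4A and was held by 11.9%. A match describes letters and does not show a bound site.
SULT1E1 promoter, chr4:69860096-69860395, minus strand: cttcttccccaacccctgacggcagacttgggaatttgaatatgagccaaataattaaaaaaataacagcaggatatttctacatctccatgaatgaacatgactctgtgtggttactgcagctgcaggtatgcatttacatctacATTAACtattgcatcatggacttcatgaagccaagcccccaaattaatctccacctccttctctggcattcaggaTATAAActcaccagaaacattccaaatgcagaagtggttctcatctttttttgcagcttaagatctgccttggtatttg
SULT1B1 promoter, chr4:69760571-69760870, minus strand: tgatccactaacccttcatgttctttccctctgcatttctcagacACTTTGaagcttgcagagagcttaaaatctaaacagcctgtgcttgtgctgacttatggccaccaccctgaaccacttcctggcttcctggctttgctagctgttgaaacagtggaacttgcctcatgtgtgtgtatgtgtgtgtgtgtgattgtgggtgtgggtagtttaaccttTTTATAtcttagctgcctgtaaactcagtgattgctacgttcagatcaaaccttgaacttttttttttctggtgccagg
SULT2A1 promoter, chr19:47886266-47886565, minus strand: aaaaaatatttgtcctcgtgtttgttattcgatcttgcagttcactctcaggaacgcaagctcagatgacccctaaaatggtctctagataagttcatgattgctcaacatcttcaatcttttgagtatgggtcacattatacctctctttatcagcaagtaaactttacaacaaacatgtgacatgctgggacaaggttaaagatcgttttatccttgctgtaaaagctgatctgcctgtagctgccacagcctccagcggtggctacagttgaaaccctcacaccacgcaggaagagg
TATAAA began 29 bases before the start in SULT1E1, in the direction of the gene. The same motif began 29 bases before the start in SULT1B1, on the opposite strand. SULT1E1 also held GTTAAT on the opposite strand at 104 bases before the start, and SULT1B1 held CAAAGT on the opposite strand at 205 bases before it. None of the 4 motifs occurred in the SULT2A1 window. The 3 promoters had a G+C content of 40.3%, 44.3% and 42.7% in this order, and the median of all promoters was 58.7%.

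SULT1E1 (NM_005420), the estrogen sulfotransferase, moved the most between D30 + DMSO and the conditions on either side of it. Its signals were 7.15, 2.5, 1.88 and 14.3 at D4, where replicate 4 alone lay above background, and 85, 84.3, 68 and 122 at D15. D15 lay above D4 without overlap, a fitted log2 fold change of 4.23 (SE 0.599, limma, adjusted p = 2.93e-05, n = 4 per condition). Its size rests on the dim D4 signals and was 1.31 with normexp background correction, and the methods' t-test did not call it (adjusted p = 0.0113). Its signals were 162, 194, 169 and 72.5 in D30 − DMSO and 6.45, 4.52, 1.92 and −1.86 in D30 + DMSO, where no array lay above background. For a fold, these signals were raised to the lowest signal of any probe well above background on the same array. Counted so, SULT1E1 was 19.7-fold lower with DMSO (limma on the values not raised, adjusted p = 2.3e-06). Probes differ in the signal at which they pass background, so such a fold is no strict lower limit. After withdrawal the signals were 233, 253, 207 and 98.1, 26.2-fold higher than in D30 + DMSO when counted in the same way (limma, adjusted p = 7.03e-07). Against D15, the cells from which DMSO treatment started, D30 + DMSO was 12.4-fold lower when counted in the same way (limma, adjusted p = 8.27e-06). This call was lost with the methods' t-test (adjusted p = 0.00617).

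The levels of SULT1E1 thus fell into a low pair of conditions, D30 + DMSO and D4, and a high group of 3, D15, D30 − DMSO and D34 ± DMSO. Within the high group, neighbours in the order of means overlapped. D30 − DMSO differed from D15 by 0.672 (95% interval −0.585 to 1.93) and D34 ± DMSO from D30 − DMSO by 0.409 (95% interval −0.849 to 1.67) on the log2 scale. Replicate 4, on slide 4, was the lowest of the 4 arrays in both D30 − DMSO and D34 ± DMSO. Within slide 3 the log2 difference of D30 + DMSO from D30 − DMSO was −4.9, and within slide 4 it was −5.71, both with signals below 1 set to 1. The fitted log2 change, −5.68, depended on how dim signals were treated and ran from −6.09 to −1.61 over the alternatives. That after withdrawal, 6.09, ran from 1.9 to 6.5, and that against D15, −5.01, from −5.42 to −1.16. The smallest of these changes fall short of the folds counted above. The bulk RNA cannot tell fewer cells that make a transcript from less of the transcript in each cell. Markers of other cells also moved with DMSO. The summed signal of 4 fibroblast or stellate markers was 369 to 686 in D30 + DMSO against 2770 to 7010 in D30 − DMSO. Nearly all of it was DCN, with COL1A2 and PDGFRB above background on no array. The summed signal of the keratinocyte markers KRT5, KRT14 and TP63 was 24 to 45.4 in D30 + DMSO against 175 to 479 in D30 − DMSO. After withdrawal the fibroblast or stellate sum was 2620 to 7050 and the keratinocyte sum 68.6 to 248. The sum of 4 markers of dividing cells was then 3390 to 8280, against 275 to 739 in D30 + DMSO. At D4, where SULT1E1 was also low, the fibroblast or stellate sum was 5990 to 11500 and the keratinocyte sum 292 to 834. The dividing-cell sum was 3730 to 5410 at D4 and 515 to 875 in D30 − DMSO, where SULT1E1 was high. The enterocyte sum was 317 to 516 in D30 + DMSO and 247 to 376 in D30 − DMSO. The leukocyte sum was 2400 to 2870 in D30 + DMSO, 3260 to 4460 in D30 − DMSO and 2110 to 3060 after withdrawal. The endothelial sum was 156 to 203 in D30 + DMSO and 136 to 172 in D30 − DMSO. Biliary markers were called in both directions. Of 8, SPP1 fell by 1.78 with DMSO (limma, adjusted p = 4.61e-05) and rose by 2.24 after withdrawal, SOX9 rose by 1.3 (limma, adjusted p = 0.00154) and then fell by 2.07, and the others had no call in these comparisons. Their summed signal was 56800 to 84000 in D30 + DMSO and 72500 to 79000 in D30 − DMSO. The part of these markers in the SULT1E1 differences was not tested. The summed hepatocyte markers were 1450000 to 2450000 in D30 + DMSO, none of the 4 arrays below the 1370000 to 1430000 of D30 − DMSO.

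SULT1B1 (NM_014465), which sulfonates thyroid hormones, lay above background on all 20 arrays and was likewise low at D4 and in D30 + DMSO and higher in the other 3 conditions. Its signals were 35.4, 39.5, 18.8 and 44.4 at D4 and 128, 139, 106 and 136 at D15, a log2 rise of 1.95 (SE 0.285, limma, adjusted p = 4.18e-05) with no overlap. They were 228, 224, 231 and 158 in D30 − DMSO, all above D15, but this difference of 0.716 (95% interval 0.118 to 1.31) was not called (limma, adjusted p = 1). In D30 + DMSO the signals were 40.6, 38.1, 41.3 and 22.9, within the range of D4. This was 5.98-fold below D30 − DMSO (log2 fold change −2.58, SE 0.285, limma, adjusted p = 3.83e-06). DMSO-treated cells were also below D15, by 3.64-fold (limma, adjusted p = 0.000102). This call was lost with normexp (−0.836, under 2-fold) and with the methods' t-test (adjusted p = 0.00512), and the methods' t-test also lost that from D4 to D15 (adjusted p = 0.00781). After withdrawal the signals reached 376, 355, 460 and 186, which was 9.4-fold above D30 + DMSO (log2 fold change 3.23, SE 0.285, limma, adjusted p = 1.92e-07). D34 ± DMSO had the highest mean, and it overlapped D30 − DMSO because of replicate 4. The difference of 0.652 (95% interval 0.0547 to 1.25) was not called (limma, adjusted p = 0.281). Within slides 3 and 4 the log2 difference of D30 + DMSO from D30 − DMSO was −2.54 and −2.37. With normexp the changes of SULT1B1 were smaller and still called, at 1.06 from D4 to D15, −1.34 with DMSO and 1.85 after withdrawal.

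SULT1B1 and SULT1E1 are neighbours in the RefSeq order of protein-coding genes on chromosome 4, between the UGT2 genes for glucuronidation on one side and genes of caseins and salivary proteins on the other. Of the 17 protein-coding genes of this stretch, 8 had a leading probe that entered the tests. The 5 tested UGT2 genes rose from D4 to D15 like the sulfotransferases, by log2 fold changes of 3.91 in UGT2B10, 3.08 in UGT2A3, 3.57 in UGT2B7, 4.25 in UGT2B11 and 5.89 in UGT2B4. With DMSO their values were 0.253, −0.956, −1.01, 0.451 and 0.742 in the same order, and none was called. SULT1B1 and SULT1E1 were the only members of the tested stretch called with DMSO and after its withdrawal. Most genes on the casein side did not enter the tests, and ODAM, which did, had −0.559 with DMSO without a call. FDCSP, the next gene beyond ODAM, had −1.86 with DMSO and 1.24 after withdrawal, in the directions of the sulfotransferases, without a call.

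**Figure D2:**
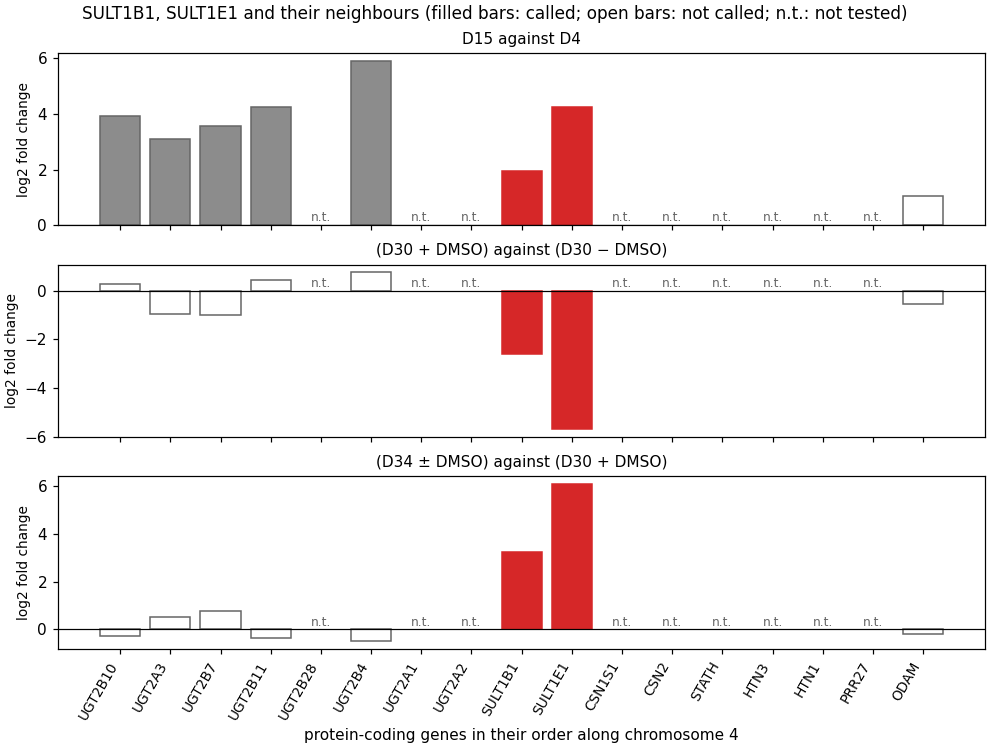
Log2 fold changes (vertical axis) of SULT1B1, SULT1E1 (red) and their protein-coding neighbours on chromosome 4, in gene order, for differentiation, DMSO addition and DMSO withdrawal. The 5 tested UGT2 genes rose by D15 with the sulfotransferases, and with DMSO the calls were those of SULT1B1 and SULT1E1 alone; for SULT1E1, D30 + DMSO was not above background on any array and the bar is the fitted value.

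SULT2A1 (NM_003167), which sulfonates dehydroepiandrosterone and bile acids, had its highest signals in the cells with DMSO. Its signals were 37.3, 99.7, 34.9 and 155 at D4 and 3370, 3720, 3050 and 5400 at D15. This log2 rise of 5.82 (SE 0.369, limma, adjusted p = 2.04e-09, 56.6-fold) left no overlap. The signals were 7880, 7630, 8000 and 4690 in D30 − DMSO, which overlapped D15 through replicate 4 of D30 − DMSO. They were 19700, 19400, 19800 and 14800 in D30 + DMSO, all above every array of D30 − DMSO. This difference, 2.65-fold (log2 fold change 1.41, SE 0.369), missed the threshold (limma, adjusted p = 0.0114). After withdrawal the signals were 11600, 8400, 9270 and 6510, all below every array with DMSO. This difference of −1.06 (SE 0.369) also missed the threshold (limma, adjusted p = 0.0478). Over the whole second phase, from D15 to D30 + DMSO, SULT2A1 rose 4.83-fold (log2 fold change 2.27, SE 0.369, limma, adjusted p = 0.000194). The order of conditions was D4, D15, D30 − DMSO, D34 ± DMSO and D30 + DMSO, in which D15 overlapped D30 − DMSO and D30 − DMSO overlapped D34 ± DMSO.

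All 20 arrays shared 1 estimate of the error, and leaving out 1 D4 array changed the DMSO call of SULT2A1. Without replicate 4 of D4, the array with the highest SULT2A1 signal of that condition, the same log2 difference of 1.41 was called (limma, adjusted p = 0.00227). Over the leave-one-out fits the adjusted p ran from 0.00227 to 0.0435. Within slide 3 the difference was 1.31, and within slide 4 it was 1.87.

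SULT1C2 (NM_176825), a sulfotransferase of phenols, had 2 probes that entered the tests, which responded alike to differentiation and unequally to DMSO. The probe A_23_P51002 gave 80.5, 145, 131 and 170 at D4 and 1000, 1080, 1010 and 1040 at D15, a log2 rise of 3.03 (SE 0.239, limma, adjusted p = 2.57e-08). The probe A_33_P3245238 rose by 3.08 (SE 0.307, limma, adjusted p = 4.61e-07). For A_23_P51002 the signals were 1210, 1130, 1160 and 901 in D30 − DMSO and 953, 797, 866 and 460 in D30 + DMSO, which overlapped. Its difference was −0.56 (SE 0.239, limma, adjusted p = 0.124). For A_33_P3245238 they were 718, 626, 691 and 518 without DMSO and 348, 215, 195 and 103 with it, with no overlap. This probe fell by 1.69 (SE 0.307, limma, adjusted p = 0.000642) and rose by 1.74 after withdrawal (SE 0.307, limma, adjusted p = 0.000403), when its signals were 618, 874, 484 and 704. A_23_P51002 had 1120, 1380, 907 and 1600 after withdrawal, a difference of 0.724 that was not called (limma, adjusted p = 0.0378). The log2 ratio of A_23_P51002 to A_33_P3245238 within an array rose by 1.13 with DMSO and fell by 1.01 after withdrawal (exact permutation test, two-sided, p = 0.0286 each, the smallest that 4 against 4 arrays allow). Without the 7 arrays of slide 4, the DMSO calls of A_33_P3245238 were lost (−1.31 with DMSO, adjusted p = 0.0305, and 1.23 after withdrawal, adjusted p = 0.0362, limma). They were also lost with the methods' t-test (adjusted p = 0.0314 and 0.0393) and when limma was fitted on the compared arrays alone (adjusted p = 0.00822 and 0.00996).

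SULT1A2 (NM_177528) gave a signal on all arrays that changed little. Its signals were 4500, 5200, 5300 and 5500 at D4 and 8700, 9250, 9990 and 10300 at D15. D15 lay above D4 without overlap, by 1.87-fold (log2 fold change 0.9, SE 0.17, limma, adjusted p = 0.000583), which is under the 2-fold threshold. From D15 on, the conditions overlapped, with a lowest signal of 7420 (D30 + DMSO replicate 4) and a highest of 14000 (D30 + DMSO replicate 3). Its difference between D30 + DMSO and D30 − DMSO was 0.116 (SE 0.17, limma, adjusted p = 0.747). SULT1A2 is nearly identical in sequence to SULT1A1 and its other paralogs, so that transcripts of these genes may have bound its probe, and its values are uncertain in that respect.

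Of the members that did not enter the tests, SULT1C4 (NM_006588) had 2 probes. A_23_P39605 lay above background on no array, with signals from −5.89 to 12.1. A_33_P3304511 lay above background on 1 D4 array, 1 D30 − DMSO array and 2 D30 + DMSO arrays, with a highest signal of 24.1. SULT2B1 (NM_004605), the cholesterol sulfotransferase, lay above background on 2 arrays, both of D4, with signals of 8.46 and 7.21. SULT1C3, which is no member and lies beside SULT1C2, entered the tests through its 4 D30 − DMSO arrays (9.41, 22.5, 15.9 and 22.3) and had no call. Of the remaining human cytosolic sulfotransferases, SULT4A1 and SULT6B1 did not enter the tests, and SULT1A3 and SULT1A4 were not analysed here.

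**Figure D3:**
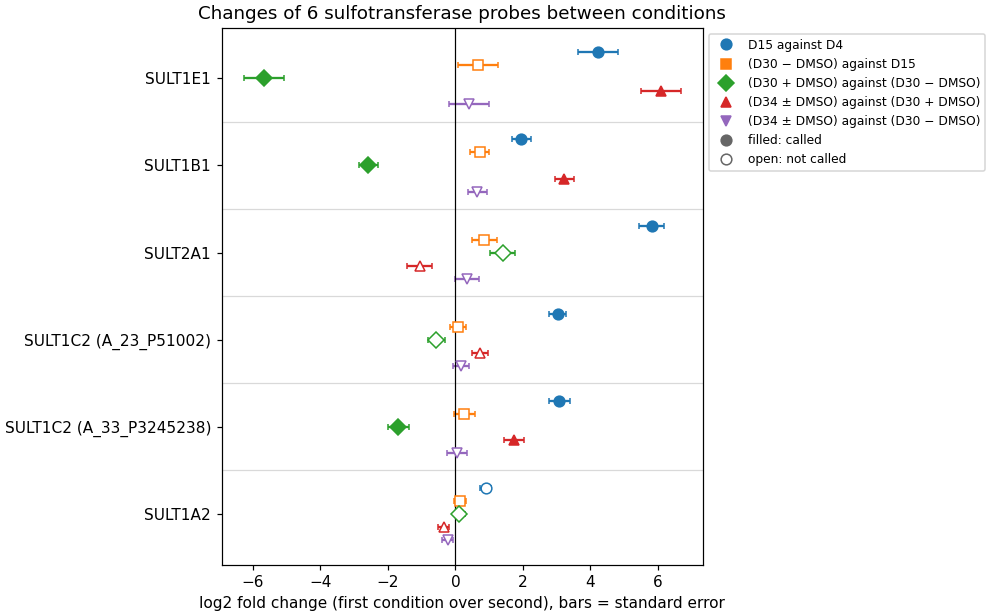
Log2 fold changes (horizontal axis, bars for the standard error of the limma fit, n = 4 arrays per condition) of the 6 sulfotransferase probes between 5 pairs of conditions; filled symbols were called and open symbols were not. From D4 to D15, 5 of the 6 probes were called higher and SULT1A2 was not, and the probes then divided, with SULT1E1 at −5.68 (a fitted value, with no D30 + DMSO array above background), SULT1B1 at −2.58 and SULT2A1 at 1.41 with DMSO.

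From D4 to D15, 5 of the 6 probes were called higher, with a median log2 fold change over the 6 probes of 3.05 against 0.00938 over all probes, and then differed from one another with DMSO. Their median was −1.12 with DMSO (0.0338 over all probes) and 1.23 after withdrawal (−0.04 over all probes). To compare the members directly, the log2 ratio of each of the 15 pairs among the 6 probes was taken within each array and compared between D30 + DMSO and D30 − DMSO, and between D34 ± DMSO and D30 + DMSO. In all 30 comparisons, every array of one condition had a higher ratio than every array of the other (exact permutation test, two-sided, p = 0.0286, adjusted over the 30 comparisons p = 0.0286). The 30 are not independent, since the 15 ratios come from 6 probes and both comparisons share the D30 + DMSO arrays. Each p is the smallest that 4 against 4 arrays allow, so that the adjustment could not change it. In the 20 comparisons without SULT1E1, the changes ran from 0.677 on the log2 scale, of SULT1A2 over SULT1C2 (A_23_P51002) with DMSO, to 4.3, of SULT1B1 over SULT2A1 after withdrawal. In the 10 with SULT1E1, its D30 + DMSO signals were not above background and do not fix the size of a change. With each of them raised to the lowest signal well above background on its array, an alternative chosen after the data were seen, all 10 still had no overlap (exact permutation test, two-sided, p = 0.0286). The ratio of SULT1E1 to its neighbour SULT1B1 was then 3.3-fold lower with DMSO and 2.79-fold higher after withdrawal, which are no strict lower limits.

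Around the sulfotransferases, genes were taken by role from lists. Among the 10 tested genes of sulfate supply and PAPS handling, 3 rose (5.46% of all probes) and 1 fell (3.76% of all probes) from D4 to D15. PAPSS2, which makes PAPS, rose by 1.19 (SE 0.178, limma, adjusted p = 5.27e-05). CDO1, which starts the breakdown of cysteine to sulfate, rose by 1.1 and SUOX, which oxidises sulfite to sulfate, by 1.01. The sulfate carrier SLC26A2 fell by 1.56 (SE 0.132, limma, adjusted p = 5.67e-08). With DMSO, CDO1 rose by 1.7 (SE 0.15, limma, adjusted p = 2.86e-07) and SLC26A2 fell by 1.09 (SE 0.132, limma, adjusted p = 1.02e-05). After withdrawal CDO1 fell by 1.36 and SUOX by 1.06, where 1.91% of all probes were called lower. PAPSS1, PAPSS2 and the PAPS transporters SLC35B2 and SLC35B3 had no call with DMSO or after its withdrawal. The enzymes that remove sulfate (STS, ARSA, ARSB) with their activators SUMF1 and SUMF2, and the tyrosine sulfotransferases TPST1 and TPST2, had no call between any conditions, 0 of 5 and 0 of 2 genes in each of the 6 comparisons. By unadjusted p below 0.05, 12 of their 42 values passed, and the methods' t-test called 0. Of all 26538 probes, 7589 passed so with DMSO, 8316 after withdrawal and 757, the fewest, from D15 to D30 − DMSO. SUMF1 rose 1.49-fold with DMSO (limma, adjusted p = 0.0017) and fell 1.7-fold after withdrawal (limma, adjusted p = 9.66e-05). In D30 + DMSO it was 1.54-fold above D15 (limma, adjusted p = 0.000756). These SUMF1 differences left no overlap and missed a call by fold alone.

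Of the 6 genes of estrogen handling, the substrate class of SULT1E1, HSD17B2 and HSD17B11 rose from D4 to D15, by 2.34 and 1.43 (5.46% of all probes). HSD17B2, which oxidises estradiol to estrone, fell by 1.05 with DMSO (SE 0.187, limma, adjusted p = 0.00052), while HSD17B11 rose by 1.06 (SE 0.17, limma, adjusted p = 0.00019). CYP19A1, the aromatase that makes estrogens, was lower by 1.52 with DMSO without overlap, which missed the threshold (limma, adjusted p = 0.00812). After withdrawal, CYP19A1 rose by 2.47 (SE 0.38, limma, adjusted p = 0.000101) and HSD17B11 fell by 1. The estrogen receptor ESR1 had no call between any conditions.

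Of 8 tested transporters of sulfate conjugates, SLC10A1, SLCO1B1 and SLCO2B1, uptake carriers of hepatocytes, rose from D4 to D15 by 5.12, 4.34 and 5.46, against 5.46% of all probes called higher. SLCO1B3, above background on no D15 array, was lower at D15 than at D4 (limma, adjusted p = 0.00139), the 1 transporter called lower, against 3.76% of all probes. With its D15 signals raised as for SULT1E1, the fold was 4.42. SLCO1B1 rose by 1.13 with DMSO, SLC10A1 fell by 1.28 after withdrawal, and ABCC2, which exports conjugates into bile, was higher by 1.24 in D34 ± DMSO than in D30 − DMSO (SE 0.236, limma, adjusted p = 0.00319). Of 12 receptors and factors known to act on sulfotransferase genes, 6 rose (HNF4A, NR1H4, NR1I2, NR1I3, NR5A2 and RORA) and VDR, the vitamin D receptor, fell from D4 to D15 (5.46% of all probes higher and 3.76% lower). With DMSO, the xenobiotic receptor NR1I3 (CAR) rose by 2.42 (SE 0.387, limma, adjusted p = 0.000186) and VDR fell by 1.35 (SE 0.188, limma, adjusted p = 4.39e-05). After withdrawal NR1I3 fell by 2.02 and VDR rose by 1.15. The other 10 receptors and factors had no call in those comparisons. Without the arrays of slide 4, the calls with DMSO of HSD17B11, HSD17B2 and SLCO1B1, those after withdrawal of HSD17B11, SUOX and SLC10A1, that of ABCC2, and that of SUOX from D4 to D15 were lost with no change of sign. With normexp background correction, those of CYP19A1, VDR, HSD17B11 and SUOX after withdrawal and of HNF4A, CDO1, SUOX and SLCO1B3 from D4 to D15 were lost, also with no change of sign.

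**Figure D4:**
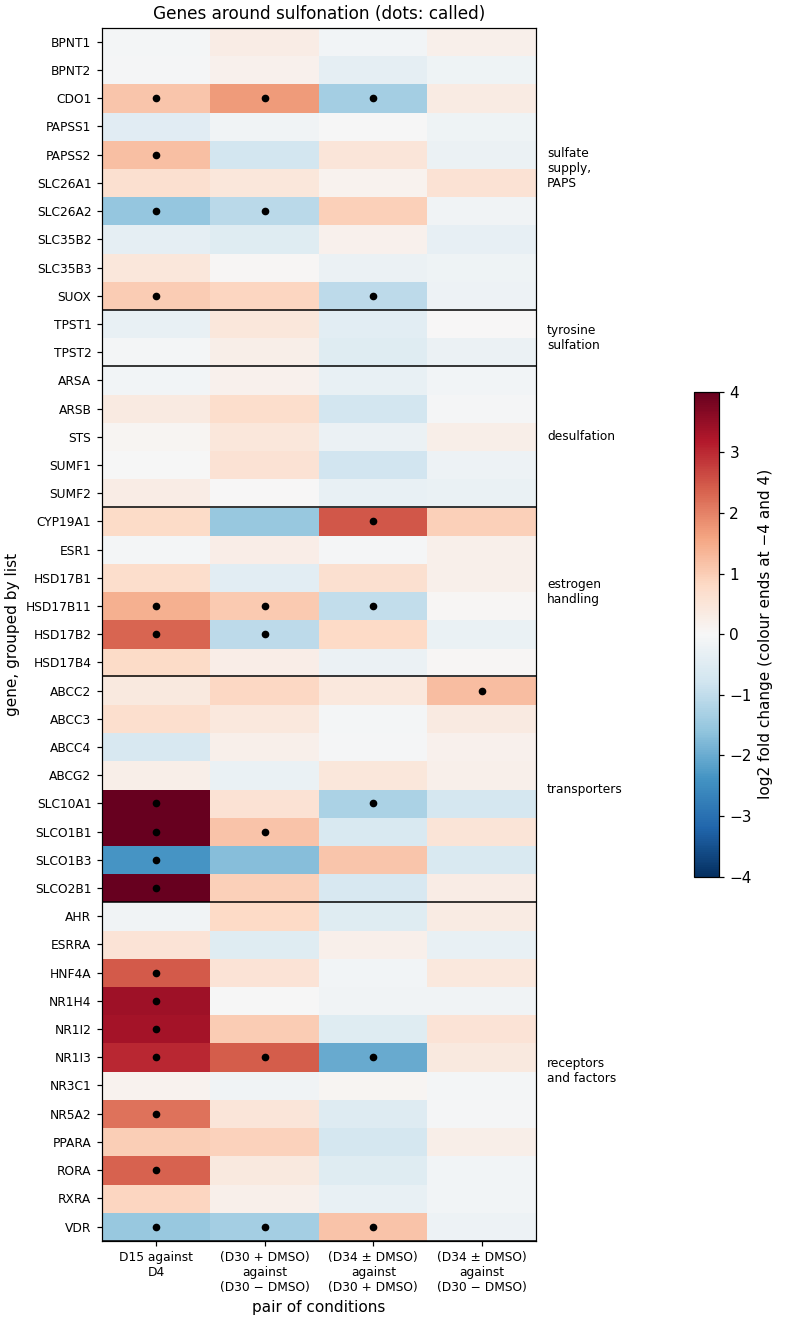
Log2 fold changes (colour, ending at −4 and 4) of the 43 tested genes of sulfate supply, sulfation, desulfation, estrogen handling, conjugate transport and transcriptional control (rows) for 4 pairs of conditions (columns); dots mark calls. With DMSO, CDO1, HSD17B11, SLCO1B1 and NR1I3 were called higher (1.67% of all probes) and SLC26A2, HSD17B2 and VDR lower (4.1% of all probes).

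Members aside, the named genes whose log2 signals followed each called member most closely over the 20 arrays were listed. The list is a description by Pearson correlation with no test, since the arrays share 5 condition means. SULT1E1 was followed by HSD3B1 (r = 0.966), a steroid dehydrogenase that makes progesterone and androgens, TTC39A (0.964) and PPP2R1B (0.961). With DMSO the log2 changes of these 3 genes were −4.14, −2.82 and −1.94. Among the genes outside the family, SULT1B1 was followed by SUSD4 (r = 0.95), CPN1 (0.939) and S100A14 (0.939), with −1.2, −1.92 and −2.39 with DMSO. Its correlation with the member SULT1E1 was higher than these (r = 0.956). SULT2A1 was followed by the plasma proteins antithrombin (SERPINC1, r = 0.996) and transferrin (TF, 0.995) and the liver enzyme HAO1 (0.994). SULT1C2 was followed by CFHR3 (r = 0.981), C4B (0.975) and LGALS4 (0.974), by its probe A_23_P51002.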

How the data were processed

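HepaRG RNA was hybridised to Agilent SurePrint G3 8x60K one-colour arrays. The authors extracted intensity values (gProcessedSignal, background-subtracted) and spot flags with Feature Extraction, version 10.7.3.1 per the labels and 10.7.1.1 per the file headers. They also deposited a matrix of log2 values, which matched log2 intensities less each array's 75th percentile and each probe's centre (medians of its columns −0.204 to 0.174).

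Spots of a probe were averaged without outlier-flagged spots, scaled to each array's 75th percentile (common value 371.3), floored at 1 and log2 transformed. Of 42405 probes, the 26538 that all 4 arrays of some condition showed well above background were fitted over 20 arrays (R 4.3.3, limma 3.58.1). Calls needed Benjamini-Hochberg adjusted p below 0.005 and over 2-fold, or, for the F-test, Bonferroni adjusted p below 0.001 and over 3-fold. These are the thresholds of the study's methods, with limma in place of its tests. The steps were tested on simulated data. The number of arrays limits the precision. Accessions gave a current symbol to 24826 probes through RefSeq tables (GRCh38.p14). A gene with several probes was described by the one of highest mean. The members and lists were chosen with earlier results of these data known. Named genes were the members, called list genes and the 3 best-correlated genes other than members. Of the list of receptors and factors, 2 genes are not reported here. Log2 deviations of samples sharing a replicate number had a median correlation of 0.252 (lowest −0.301), against −0.154 for other numbers. On the same slide the median was 0.366 (lowest 0.108), against −0.16 for other slides. The main fit held neither the replicate number nor the slide, and each was fitted as a block among the alternatives. All D30 + DMSO arrays lay on slides 3 and 4. Alternatives were other scalings, background corrections, filters, floors, batch blocks, tests and leaving out arrays.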

Additional observations from a re-analysis of the deposited data

Results flagged for a closer look

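In each condition of 4 arrays, the array farthest from the others was looked for in each sulfotransferase probe measured there, and 6 of 33 groups held an array apart from the other 3 by Dixon's test, which chance gives in about 1 in 20 groups. In D30 − DMSO, replicate 4 lay below the other 3 for SULT1B1 (158 against 224 to 231) and SULT2A1 (4690 against 7630 to 8000). In D30 + DMSO, replicate 4 lay below the other 3 for SULT1A2 (7420 against 12600 to 14000), SULT1B1 (22.9 against 38.1 to 41.3) and SULT2A1 (14800 against 19400 to 19800). At D4, replicate 2 lay below the other 3 for the SULT1C4 probe A_33_P3304511 (1.36 against 8.34 to 10.9), where 1 of the 4 arrays was above background. Replicate 4 was the lowest array for 6 of 6 tested sulfotransferase probes in D30 − DMSO and again in D30 + DMSO, for 3 of 6 in D34 ± DMSO and for 0 of 6 at D4, where it was the highest for 5 of 6. Its summed hepatocyte markers were 1430000 in D30 − DMSO, the highest of the 4 arrays, and 1790000 in D30 + DMSO, within the range of the other 3. All replicate 4 arrays lay on slide 4. Other arrays of that slide went other ways: replicate 4 of D15 was the highest for 3 of 6 probes and the lowest for 1, replicate 3 of D30 + DMSO the highest for 3 and the lowest for 0, and replicate 3 of D15 the lowest for 3 and the highest for 0.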

How the results depend on the processing

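Each of 15 sulfotransferase values called in the report was taken under 33 or 34 alternative settings, 502 values in all. None changed sign and 481 kept the call. The setting with adjusted p below 0.05 could lose no call, and many settings without 1 array left both compared conditions whole. For 21 uncalled values, 5 of 710 alternative values gave a call, all of SULT2A1 with DMSO or after withdrawal. These came with normexp background correction (1.36, limma, adjusted p = 0.00165), with only the arrays compared (limma, adjusted p = 0.00195), at an adjusted p below 0.05 (both comparisons), and without replicate 4 of D4. After Benjamini-Hochberg adjustment, the methods' t-test called 3 of 6 probes from D4 to D15 (5 by limma) and 1 from D15 to D30 + DMSO (4 by limma), and the methods' one-way analysis of variance called 3 over the 5 conditions (5 by limma). Leaving out the 7 arrays of slide 4, chosen after the data were seen, left 2 called over the 5 conditions, with fewer arrays per condition. It left 2 of 3 called with DMSO and 2 of 3 after withdrawal. The A_33_P3245238 probe of SULT1C2 lost its call between D30 + DMSO and D15 in 6 of 20 fits without 1 array, among them each of replicates 1 to 3 of D15 and 2 to 4 of D30 + DMSO, and without a filter on dim probes. With the replicate number as a block, 5, 0, 3, 3, 0 and 4 probes were called in the 6 comparisons in the order of the report and 5 over the 5 conditions, as without it. Over all probes, the number called lower with DMSO (1089) fell to 461 with normexp and 422 with the methods' t-test. Of 40 calls of the pathway lists, 34 held with quantile normalization, 32 with normexp, 40 in the authors' matrix, 36 with slide as a block and 30 without slide 4, with 0 changes of sign. SULT1E1 in D30 + DMSO and SULT1C4 and SULT2B1 throughout were limited by signal over background.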
